A study of Mus musculus with 75 samples.

Results

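The genes described here are 10 integrin subunits, Itga1, Itga2, Itga3, Itga5, Itga6, Itgav, Itgb1, Itgb5, Itgb6 and Itgb8, taken by symbol from the 32245 genes of a whole-kidney count table. RNA was sequenced from 75 mouse kidneys 3 days after unilateral ureteral obstruction (UUO), in which the ureter of a kidney is tied off, and the contralateral kidney (CL) of operated mice was the comparison. The adult mice, of both sexes and mostly of mixed background, formed 3 arms of 4 groups each. In the ABTAA arm, C57BL6/J or other wild-type mice received human IgG Fc (IgG, 8 CL and 8 UUO libraries) or ABTAA (ABT, 7 and 7), an antibody that binds ANGPT2 and activates the endothelial receptor TIE2. In the Veptp arm, tamoxifen deleted the phosphatase gene Veptp (symbol Ptprb) through a Cdh5-CreERT2 driver (VeKO, 6 CL and 8 UUO), which acts in endothelial cells, and the littermates were Veptp wt/lox mice with the same driver and no induction (VeWT, 7 and 8). VeWT UUO libraries outnumber by 1 the VeWT mice given in the study's methods, and the extra library was not identified. Since the VeWT littermates were not induced, tamoxifen and deletion cannot be told apart in that arm. In the Pdgfb arm, tamoxifen was given to mice with floxed Pdgfb and an Actb-CreERT2 driver active throughout the body (PbKO, 4 and 4), against Cre-negative Pdgfb wt/lox or lox/lox littermates (PbWT, 4 and 4), and whether these littermates received tamoxifen is not given in the sources used here. The PbWT CL group includes kidneys from 2 mice that had a sham operation, which cannot be picked out by label. All mice received carprofen around surgery.

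Integrins are receptors built from an alpha and a beta subunit that cross the plasma membrane, bind extracellular matrix outside the cell and connect to actin through talin, kindlin and vinculin inside it. Itgb1 pairs with many alpha subunits, among them the laminin receptors formed with Itga3 and Itga6, the collagen receptors formed with Itga1 and Itga2, and the fibronectin receptor formed with Itga5. Itgav pairs with Itgb5, Itgb6 and Itgb8 to bind ligands that carry an arginine-glycine-aspartate (RGD) motif, and its dimers with Itgb6 and Itgb8 release active TGF-beta from its latent complex. In the kidney, integrins hold podocytes and tubular cells on the basement membrane, and the Itgb6 dimer belongs to epithelial cells.

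Libraries held 172827 to 2341800 counts (median 757897), and levels are given as CPM, counts scaled to a common library total with edgeR's TMM factors, which compare a gene between libraries but not different genes, since they are not divided by transcript length. Summed over all libraries the members had 248 (Itga2) to 16402 (Itgb1) counts. A filter on low counts kept 9 of the 10 members in the ABTAA and Veptp arms and 8 in the Pdgfb arm, where Itga5 was also left out, and Itga2 passed in none. Itga5 passed mainly through UUO libraries, where it was higher. Its CL libraries held at most 5 counts in the ABTAA arm, against a minimum of 10, and stood at up to 9.95 CPM in the Veptp arm. The calls on Itga5 after UUO are thus not independent of the filter. Differences are log2 fold changes from edgeR's quasi-likelihood test with their standard errors (SE), and a gene was called at a Benjamini-Hochberg adjusted p under 0.05 over all genes tested in its arm. Library names came in 2 forms, 45 plain (B4) and 30 marked by a low line between letter and number (P_1). Both occur in all 8 groups of the ABTAA and Veptp arms, while the Pdgfb arm had plain names throughout. What the form stands for is not given in the sources used here, and the libraries of each form stood apart: the share of counts in Gm42418 and AY036118, genes that lie over ribosomal RNA sequence, was 9.18% to 21.8% in plain and 0.325% to 0.778% in marked Veptp libraries, and 7.32% to 18.7% and 3.89% to 5.91% in ABTAA libraries. Xist, a transcript of female cells, and Y-linked transcripts both reached at least 10 counts in 22 of the 45 plain and 2 of the 30 marked libraries, and whether these libraries hold RNA of mice of both sexes was not tested. All 8 markers of the proximal tubule, a segment of the nephron, were detected in every group. Ptprb was 31.3 ± 17.7 CPM (SD, n = 8) in VeKO and 48.2 ± 26.3 CPM (SD, n = 8) in VeWT UUO kidneys, log2 -0.69 ± 0.33 (SE, adjusted p = 1). Pdgfb in CL kidneys was 19.1 ± 3.98 CPM (SD, n = 4) in the libraries labelled PbKO and 10.5 ± 6.76 CPM (SD, n = 4) in PbWT, log2 0.78 ± 0.33 (SE, adjusted p = 1), and in UUO kidneys the log2 fold change was -0.47 ± 0.21 (SE, adjusted p = 0.125). After UUO Pdgfb rose by 2.28 ± 0.26 (SE) in PbWT and 1.03 ± 0.27 (SE) in PbKO mice. The difference of these responses was called, at -1.26 ± 0.39 (SE, adjusted p = 0.046). Counts per gene cannot show whether the deleted exons were present.

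Promoters are printed for the members called in at least 4 of the 6 comparisons of UUO with CL kidneys (Itga1, Itgav, Itgb1 and Itgb6) and for the Itgav partners called in none (Itgb5 and Itgb8), a choice made after their values were seen. Each window covers 250 bases before to 50 bases after a RefSeq transcript start, as RefSeq gives it on GRCm38.p6 (mm10, the build of the counts). Of the 10 members 9 were matched to such a window, all but Itga6. Capitals mark matches on either strand to 3 motifs, the AP-1 motif TGANTCA, the TEAD motif GGAATG and the GC box GGGCGG, which do not overlap one another in these windows. Of all 32851 promoter windows, 7.81% hold the first, 14.7% the second and 35.7% the third. The windows of Itgav, chr2:83724147-83724446, Itgb1, chr8:128685404-128685703, and Itgb5, chr16:33829415-33829714, lie on the plus strand and hold 1, 1 and 3 GC boxes, and that of Itgb1 also holds 1 TEAD match. The windows of Itga1, chr13:115101915-115102214, Itgb6, chr2:60722554-60722853, and Itgb8, chr12:119238227-119238526, lie on the minus strand and hold none of these letters, nor does a second Itgb6 window that is not printed. Matches thus occurred among called and uncalled members alike, and so did windows with none.
Itga1: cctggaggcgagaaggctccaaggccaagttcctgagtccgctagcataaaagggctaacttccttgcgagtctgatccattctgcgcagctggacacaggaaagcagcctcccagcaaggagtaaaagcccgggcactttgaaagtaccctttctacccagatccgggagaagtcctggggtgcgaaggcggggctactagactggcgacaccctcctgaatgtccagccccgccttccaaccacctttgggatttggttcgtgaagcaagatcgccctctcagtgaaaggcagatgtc
Itgav: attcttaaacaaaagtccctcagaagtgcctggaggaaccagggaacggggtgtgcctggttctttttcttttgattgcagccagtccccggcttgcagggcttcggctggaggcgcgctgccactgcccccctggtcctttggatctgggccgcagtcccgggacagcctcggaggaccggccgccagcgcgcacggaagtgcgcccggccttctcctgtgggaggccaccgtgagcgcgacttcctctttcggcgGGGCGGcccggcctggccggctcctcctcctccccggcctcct
Itgb1: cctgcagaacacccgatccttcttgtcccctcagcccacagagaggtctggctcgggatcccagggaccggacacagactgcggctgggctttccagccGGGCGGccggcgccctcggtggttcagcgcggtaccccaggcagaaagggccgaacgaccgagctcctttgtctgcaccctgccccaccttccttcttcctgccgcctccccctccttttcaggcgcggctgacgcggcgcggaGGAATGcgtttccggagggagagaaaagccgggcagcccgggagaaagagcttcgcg
Itgb6: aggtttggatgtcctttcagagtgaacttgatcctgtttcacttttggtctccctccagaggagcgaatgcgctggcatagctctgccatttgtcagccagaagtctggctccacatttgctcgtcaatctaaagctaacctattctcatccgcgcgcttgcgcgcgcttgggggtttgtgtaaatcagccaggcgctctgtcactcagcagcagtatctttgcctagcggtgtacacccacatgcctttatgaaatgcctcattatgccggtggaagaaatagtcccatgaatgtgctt
Itgb5: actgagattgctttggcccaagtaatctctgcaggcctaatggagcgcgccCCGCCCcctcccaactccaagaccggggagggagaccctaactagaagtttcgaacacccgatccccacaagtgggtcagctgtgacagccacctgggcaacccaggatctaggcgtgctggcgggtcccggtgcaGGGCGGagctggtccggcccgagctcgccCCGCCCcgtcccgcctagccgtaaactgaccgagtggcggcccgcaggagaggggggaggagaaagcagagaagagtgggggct
Itgb8: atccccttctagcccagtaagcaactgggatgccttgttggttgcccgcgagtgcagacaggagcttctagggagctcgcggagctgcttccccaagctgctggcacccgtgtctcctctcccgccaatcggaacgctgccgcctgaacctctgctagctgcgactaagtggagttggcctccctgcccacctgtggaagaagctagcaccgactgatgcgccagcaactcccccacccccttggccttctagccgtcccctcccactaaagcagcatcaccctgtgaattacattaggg

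UUO was compared with CL kidneys in the control mice of each arm first. In IgG mice 6 of the 9 members tested rose and none fell: Itga3, Itga1, Itga5, Itgav, Itgb1 and Itgb6. In PbWT mice Itga3, Itga6, Itga1, Itgav, Itgb1 and Itgb6 rose, 6 of 8 tested. In VeWT mice Itga1, Itgav, Itgb1 and Itgb6 rose, 4 of 9 tested. So the matrix-binding Itga1, the RGD-binding Itgav, the common Itgb1 and the epithelial Itgb6 rose in all 3 control groups, by log2 fold changes of 0.61 to 1.12, and Itgb5 and Itgb8 were called in none. Of all genes tested, 16.3% were called higher in UUO in IgG, 10.0% in VeWT and 17.9% in PbWT mice. The median log2 fold change over the members tested was 0.73, 0.69 and 0.64, against 0.02, -0.01 and 0.04 over all genes tested.

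**Figure D1:**
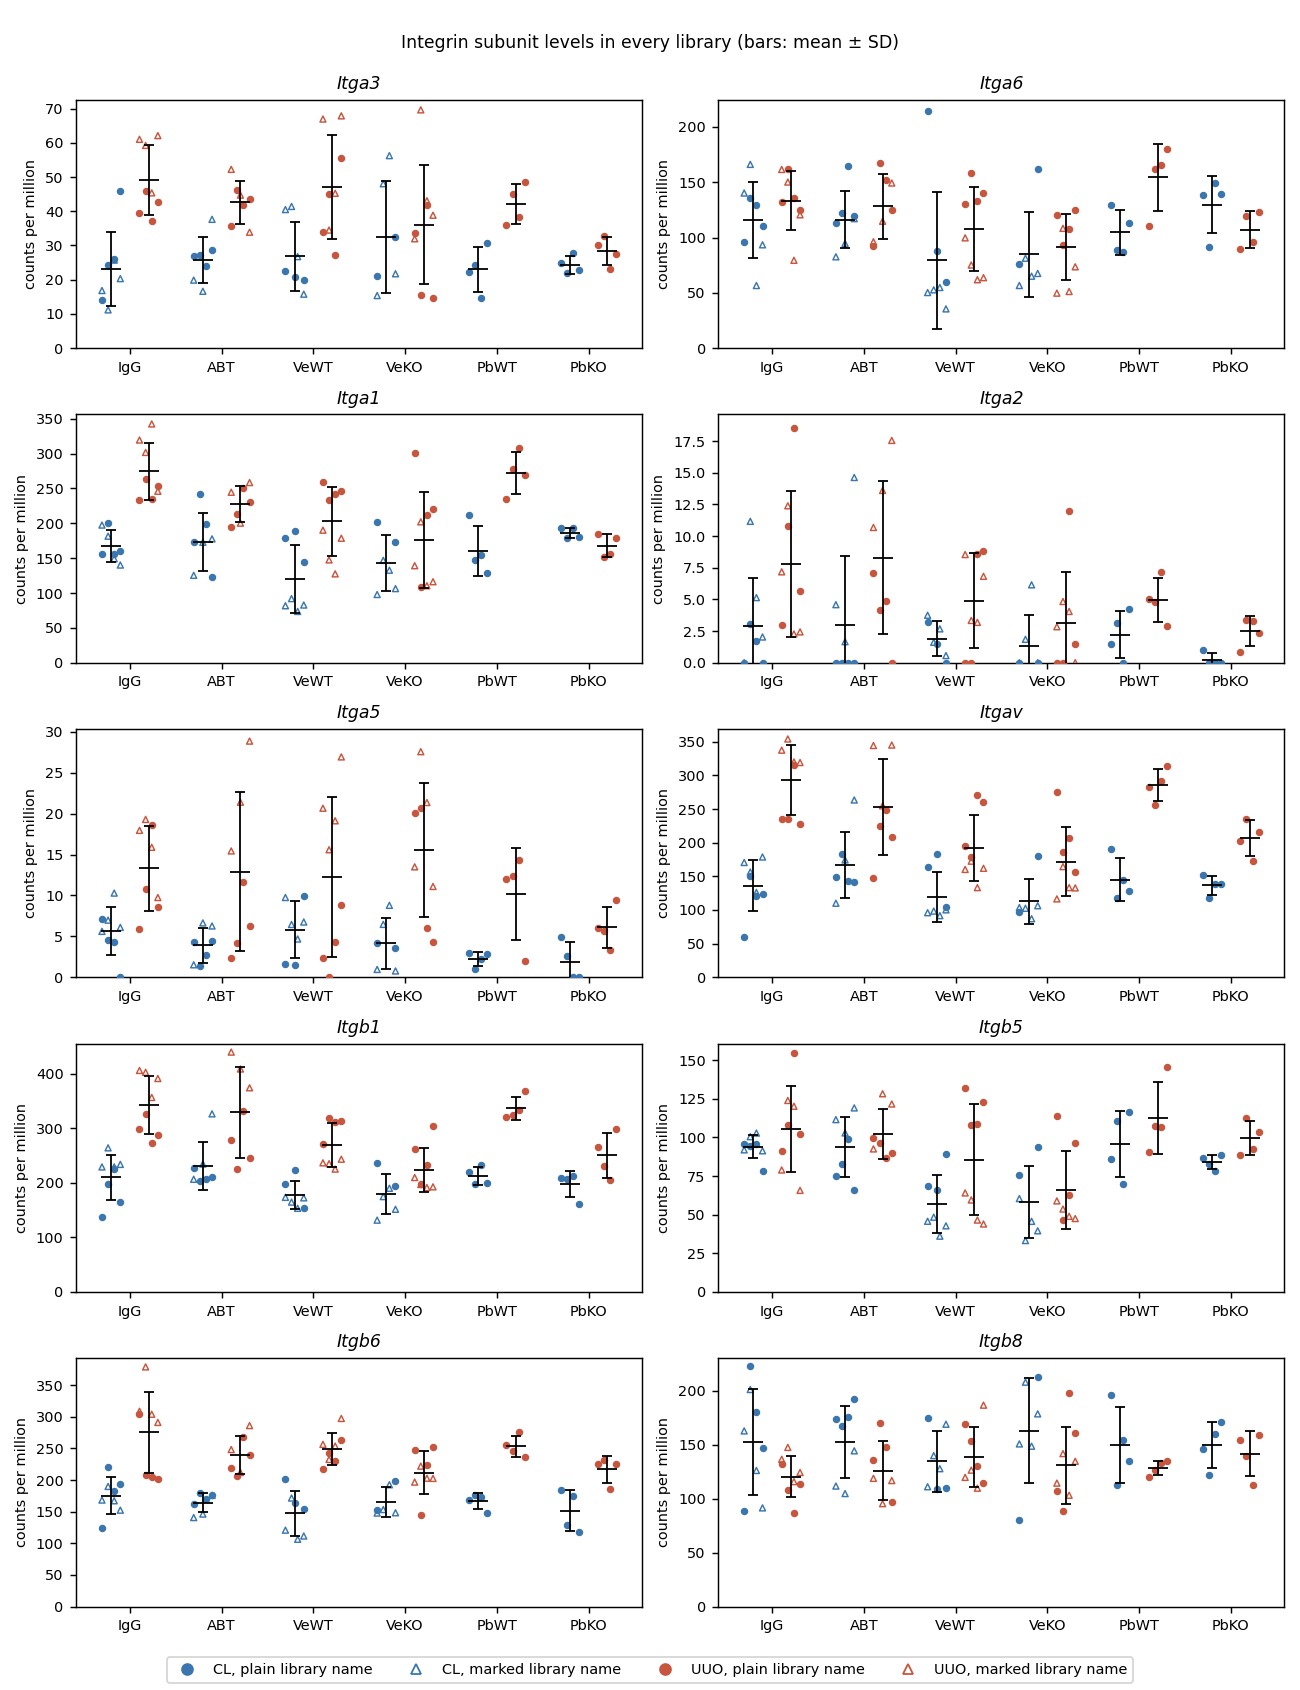
Scaled counts (CPM, linear axes from 0) of the 10 integrin subunits in each of the 75 libraries, by genotype or treatment, with CL kidneys in blue and UUO kidneys in red, filled circles for plain library names, open triangles for marked names, and bars for the mean and SD of each group. The means of Itgav and Itgb6 are higher in UUO than in CL kidneys in all 6 genotypes or treatments, those of Itgb8 in VeWT mice alone, and bars of Itga2 and Itga5 that would pass below 0 are clipped there.

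Of the laminin-binding alpha subunits, Itga3 (chr11:95044474-95076801, minus strand) ran from 11.2 to 46.0 CPM (median 22.4) in IgG CL and 37.1 to 62.1 CPM (median 45.6) in IgG UUO kidneys. The ranges overlapped through a single CL library, the highest, and the log2 fold change was 1.20 ± 0.20 (SE, adjusted p = 1.04e-05). In PbWT mice the CL libraries stood at 14.7, 22.3, 24.3 and 30.8 CPM and the UUO libraries at 36.1, 38.2, 45.2 and 48.6 CPM. These did not overlap, and Itga3 rose by 0.88 ± 0.20 (SE, adjusted p = 0.00104). In VeWT mice the difference was 0.81 ± 0.30 (SE, adjusted p = 0.0578), short of the threshold. Itga6 (chr2:71745616-71858416, plus strand), the other laminin-binding subunit, was 116 ± 34.2 CPM (SD, n = 8) in IgG CL and 133 ± 26.8 CPM (SD, n = 8) in IgG UUO kidneys, with overlapping ranges and a log2 difference of 0.21 ± 0.18 (SE, adjusted p = 0.384). In VeWT mice the difference was 0.45 ± 0.32 (SE, adjusted p = 0.384), and among marked VeWT libraries alone it was called at 0.69 (adjusted p = 0.0356). In PbWT mice Itga6 rose, from 87.1, 88.7, 114 and 129 to 110.2, 162, 165 and 179.9 CPM, by 0.58 ± 0.18 (SE, adjusted p = 0.0112). The PbWT call ended without the CL library B5 (adjusted p = 0.0506).

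Itga1 (chr13:114953096-115101964, minus strand), which forms the receptor for basement membrane collagen, stood at 140.1 to 199.9 CPM (median 158) in IgG CL and 233 to 343 CPM (median 259) in IgG UUO kidneys. The ranges did not overlap, and Itga1 rose by 0.73 ± 0.13 (SE, adjusted p = 2.54e-05). The PbWT values were 129, 148, 154 and 212 CPM in CL and 235, 269, 278 and 309 CPM in UUO kidneys, again without overlap, a rise of 0.78 ± 0.14 (SE, adjusted p = 6.92e-05). In VeWT mice it rose by 0.77 ± 0.25 (SE, adjusted p = 0.0293), from 73.5 to 188 CPM (median 91.9) to 127 to 259 CPM (median 212). The call ended without G_5, G_6, G_7, G_8, H8, C9 or H9, each in turn (adjusted p up to 0.0752). The VeWT CL values split by form of name, with 73.5 to 91.9 CPM in 4 marked libraries and 144 to 188 CPM in 3 plain ones. Within the forms the log2 fold change was 1.02 (adjusted p = 0.000663) for marked and 0.58 (adjusted p = 0.107) for plain names. Pelo lies in an intron of Itga1 and Gm49395 shares exon sequence with it on the same strand. How the counting treated reads in the shared sequence is not given in the sources used here. Itga2 (chr13:114833081-114932100, minus strand), whose product binds fibrillar collagen, was too low to test: its counts summed over the 8 IgG libraries of each kidney were 15 in CL and 26 in UUO, over VeWT 16 in 7 CL and 50 in 8 UUO libraries, and over PbWT 7 and 35 in 4 and 4. In no library did Itga2 exceed 18 counts, and 22 of 75 libraries had none.

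Of the RGD-binding alpha subunits, Itgav (chr2:83724397-83806916, plus strand) had more counts than Itga5. It ran from 60.2 to 179 CPM (median 139) in IgG CL and 227 to 354 CPM (median 317) in IgG UUO kidneys. These ranges did not overlap, and Itgav rose by 1.12 ± 0.18 (SE, adjusted p = 7.16e-06), 2.17-fold. In PbWT mice the CL libraries held 118, 128, 145 and 190.2 CPM and the UUO libraries 256, 283, 291 and 314 CPM, a rise of 0.99 ± 0.14 (SE, adjusted p = 4.15e-06) with no overlap. The rise in VeWT mice was 0.69 ± 0.21 (SE, adjusted p = 0.018), from 119.7 ± 37.5 CPM (SD, n = 7) to 192 ± 49.1 CPM (SD, n = 8). Gm13684 overlaps an exon of Itgav on the other strand, and the strand setting of the counting is not given in the sources used here. Itga5 (chr15:103344286-103366763, minus strand), the alpha subunit of the fibronectin receptor, was low, with 0 to 14 counts a library in IgG mice, and passed the filter through UUO libraries. It was 5.62 ± 2.93 CPM (SD, n = 8) in IgG CL and 13.3 ± 5.18 CPM (SD, n = 8) in IgG UUO kidneys and rose by 1.13 ± 0.40 (SE, adjusted p = 0.0245), a call that ended without the CL library B6 (adjusted p = 0.059). In VeWT mice its difference was 1.25 ± 0.48 (SE, adjusted p = 0.0662). In PbWT mice, where it missed the filter, Itga5 had 7 counts over 4 CL and 76 over 4 UUO libraries, and a fit with no filter called it at 2.30 (adjusted p = 5.54e-05).

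Itgb1 (chr8:128685654-128733200, plus strand), the partner of all members among the alpha subunits, was 138 to 264 CPM (median 227) in IgG CL and 272 to 406 CPM (median 341) in IgG UUO kidneys, without overlap, and rose by 0.73 ± 0.14 (SE, adjusted p = 0.000102). VeWT mice gave 153 to 224 CPM (median 172) and 225 to 318 CPM (median 257), also without overlap, and a rise of 0.62 ± 0.15 (SE, adjusted p = 0.00311). In PbWT mice the CL libraries stood at 199, 199, 219.9 and 232 CPM and the UUO libraries at 320.0, 324, 333 and 368 CPM, a rise of 0.67 ± 0.13 (SE, adjusted p = 0.000143). The CL and UUO libraries of the PbWT mice did not overlap either.

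The beta subunits that pair with Itgav differed among themselves. Itgb6 (chr2:60598292-60722643, minus strand) rose by 0.69 ± 0.13 (SE, adjusted p = 5.38e-05) in IgG mice, from 124 to 221 CPM (median 176) to 202 to 379 CPM (median 297), with some overlap. In VeWT mice 106 to 202 CPM (median 154) in CL and 217 to 297 CPM (median 248) in UUO kidneys did not overlap, and the rise was 0.78 ± 0.15 (SE, adjusted p = 0.000373). PbWT CL libraries held 149, 168, 173 and 176 CPM and UUO libraries 236, 246, 255 and 276 CPM, a rise of 0.61 ± 0.13 (SE, adjusted p = 0.000665) without overlap. Itgb5 (chr16:33829665-33949338, plus strand), which forms a vitronectin receptor, was 93.9 ± 7.45 CPM (SD, n = 8) in IgG CL and 106 ± 28.0 CPM (SD, n = 8) in IgG UUO kidneys, and its log2 fold changes were 0.17 ± 0.14 (SE, adjusted p = 0.387) in IgG, 0.62 ± 0.28 (SE, adjusted p = 0.122) in VeWT and 0.23 ± 0.16 (SE, adjusted p = 0.278) in PbWT mice. Itgb8 (chr12:119158022-119238802, minus strand), the other activator of latent TGF-beta, was 152 ± 48.9 CPM (SD, n = 8) and 120.4 ± 18.9 CPM (SD, n = 8), with log2 fold changes of -0.31 ± 0.17 (SE, adjusted p = 0.156) in IgG, 0.07 ± 0.18 (SE, adjusted p = 0.867) in VeWT and -0.20 ± 0.15 (SE, adjusted p = 0.32) in PbWT mice. Without TMM factors the PbWT value of Itgb8 turned to 0.17. That scaling moved the all-gene median from 0.02 to 0.23 in IgG, from -0.01 to 0.14 in VeWT and from 0.04 to 0.41 in PbWT mice, so the changes above are relative to the other genes of a library.

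The forms of library name were fitted apart in the ABTAA and Veptp arms. In IgG mice, with 4 CL and 4 UUO libraries of each form, Itga3, Itga1, Itgav and Itgb1 were called in both. Itgav stood at 1.08 (adjusted p = 0.000261) among marked and 1.17 (adjusted p = 0.000234) among plain libraries, and Itga3 at 1.69 (adjusted p = 8.31e-05) and 0.72 (adjusted p = 0.0424). Itgb6 was called among marked libraries alone, at 0.93 (adjusted p = 5.01e-05) against 0.43 (adjusted p = 0.0892) among plain ones. Of all genes, 13.7% were called higher among marked and 10.7% among plain IgG libraries. In VeWT mice 6 of 9 members tested were called among marked libraries and, with Itga5 untested, 2 of 8 among plain ones, Itgb1 at 0.71 (adjusted p = 0.0171) and Itgb5 at 0.76 (adjusted p = 0.0404), and 7 of 9 with the form as a covariate, where 13.7%, 7.32% and 16.6% of all genes were called higher. The 6 uncalled plain values were all above 0, at 0.93 (adjusted p = 0.101) for Itga3, 0.62 (adjusted p = 0.107) for Itgav, 0.58 (adjusted p = 0.107) for Itga1, 0.51 (adjusted p = 0.101) for Itgb6, 0.22 (adjusted p = 0.684) for Itga6 and 0.17 (adjusted p = 0.758) for Itgb8. Whether the response itself differs between the forms was not tested.

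The groups were set in order of their mean level among plain libraries, the form that all 12 groups hold, since means over both forms mix them in unequal numbers. For Itgav, Itgb1 and Itgb6 the 6 UUO groups held the first 6 places. Itgav ran from PbWT UUO (286 ± 24.1 CPM, SD, n = 4) to IgG CL (114 ± 38.4 CPM, SD, n = 4), Itgb6 from PbWT UUO (253 ± 16.9 CPM, SD, n = 4) to PbKO CL (152 ± 32.6 CPM, SD, n = 4) and Itgb1 from PbWT UUO (336 ± 21.7 CPM, SD, n = 4) to IgG CL (181 ± 37.6 CPM, SD, n = 4). Itga1 ran from PbWT UUO (273 ± 30.3 CPM, SD, n = 4) to PbWT CL (161 ± 36.1 CPM, SD, n = 4). For Itgb8 the first 5 places were CL groups, and its mean ran from ABT CL (177 ± 10.7 CPM, SD, n = 4) to IgG UUO (110.0 ± 18.6 CPM, SD, n = 4). Neighbours in these orders mostly lay closer than the larger of their SDs, at all 11 steps for Itga3, Itga6, Itga1, Itga5, Itgb5 and Itgb6 and at 10 of 11 for the other 4 members. The order differed among marked libraries of the 8 groups that have them, where the ABT CL and IgG CL groups stood above VeWT UUO for Itgav, while the 4 UUO groups again came first for Itgb6.

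Markers of other cell states moved with UUO in the same libraries. In IgG mice 8 of 8 fibroblast and pericyte markers, 8 of 8 injured tubule markers and 7 of 7 macrophage markers rose, and 8 of 8 proximal tubule markers fell. There 5 of 5 loop and distal tubule and 3 of 6 collecting duct markers also fell, and of 9 endothelial markers 2 rose and 1 fell. Summed, the fibroblast and pericyte markers were 202 to 407 CPM in IgG CL and 1349 to 2060.4 CPM in IgG UUO kidneys, the injured tubule markers 471 to 806 and 4006 to 5678 CPM, the macrophage markers 93.4 to 139 and 254 to 384 CPM, and the proximal tubule markers 5026 to 7319 and 2047 to 3768 CPM. None of these markers was at 0 in either group. The fibroblast and pericyte, injured tubule and macrophage markers called higher after UUO were 8 of 8, 8 of 8 and 6 of 7 in ABT mice. They were 8, 8 and 6 in VeWT, 2, 6 and 5 in VeKO, 8, 8 and 7 in PbWT and 4, 6 and 4 in PbKO mice, and none was called lower. The part of all these markers in the integrin results was not tested, and in whole-kidney RNA fewer cells of a type and less RNA per cell cannot be told apart.

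The same comparison in treated mice asks how the integrin genes respond to obstruction in mice given ABTAA and in those labelled VeKO and PbKO. Their targeted genes were not called lower in UUO kidneys, while the response of Pdgfb to UUO was called lower in PbKO than in PbWT mice. In ABT mice 6 of 9 members rose, by name the same 6 as in IgG mice: Itga3 by 0.76 ± 0.20 (SE, adjusted p = 0.00385), Itga1 by 0.42 ± 0.14 (SE, adjusted p = 0.0187), Itga5 by 1.88 ± 0.41 (SE, adjusted p = 0.00061), Itgav by 0.65 ± 0.19 (SE, adjusted p = 0.00931), Itgb1 by 0.55 ± 0.15 (SE, adjusted p = 0.00522) and Itgb6 by 0.58 ± 0.13 (SE, adjusted p = 0.00127). Of all genes tested there, 12.6% were called higher. Itgb6 ran from 141 to 179.6 CPM (median 170.0) in CL and 206 to 286 CPM (median 239.6) in UUO kidneys without overlap. Itga5 was the lowest of the 6, with 1 to 23 counts a library, and varied most relative to its mean, at 3.90 ± 2.12 CPM (SD, n = 7) in CL and 12.9 ± 9.71 CPM (SD, n = 7) in UUO kidneys. The smallest change was that of Itga1, and its call ended without F6 or without N_11 (adjusted p of 0.0579 to 0.0596). In the 8 plain libraries alone 1 member, Itga3, was called, at 0.71 (adjusted p = 0.0431), of 8 tested, since Itga5 was not, while the 6 marked libraries alone gave 6 of 9, Itga5 among them. Of all genes 7.22% were called higher among plain and 11.0% among marked libraries. In the plain libraries Itgb6 stood at 0.50 (adjusted p = 0.0629), Itgav at 0.49 (adjusted p = 0.12), Itgb1 at 0.41 (adjusted p = 0.107) and Itga1 at 0.32 (adjusted p = 0.259), all above 0.

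In VeKO mice 1 of 9 members rose, Itga5, by 1.90 ± 0.56 (SE, adjusted p = 0.0285), from 0.776 to 8.79 CPM (median 3.91) to 4.37 to 27.6 CPM (median 16.8), and 4.47% of all genes were called higher. Itga5 had 1 to 58 counts a library and passed the filter mainly through UUO libraries, and the call ended without G_1, G_4, H_2 or H_7, each left out in turn (adjusted p up to 0.107). Itgav was 113 ± 33.6 CPM (SD, n = 6) in CL and 171 ± 51.3 CPM (SD, n = 8) in UUO kidneys, a difference of 0.62 ± 0.22 (SE, adjusted p = 0.0838). With the form of name as a covariate Itgav was called too, at 0.49 (adjusted p = 0.0106), and in the 8 marked libraries alone at 0.48 (adjusted p = 0.0157). Itgb6 went from 165 ± 23.4 CPM (SD, n = 6) to 212 ± 33.9 CPM (SD, n = 8), a difference of 0.38 ± 0.16 (SE, adjusted p = 0.145). Of all genes, 10.7% were called higher with the covariate and 10.5% among marked libraries, and 0% (no gene and no member, with 540 of 7778 genes at an unadjusted p under 0.05) in edgeR's fit on the 6 plain libraries. The differences of Itgb1, Itga1 and Itga3 were 0.34 ± 0.16 (SE, adjusted p = 0.214), 0.32 ± 0.26 (SE, adjusted p = 0.578) and 0.19 ± 0.32 (SE, adjusted p = 0.818). A replicate block on the 16 marked libraries of the Veptp arm also called Itga3, Itga1, Itgav and Itgb6 higher and Itgb8 lower in VeKO mice. There 12.0% of all genes were called higher and 14.4% lower. Those libraries share only a number, and 4 of the numbers carry opposite genotypes.

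**Figure D2:**
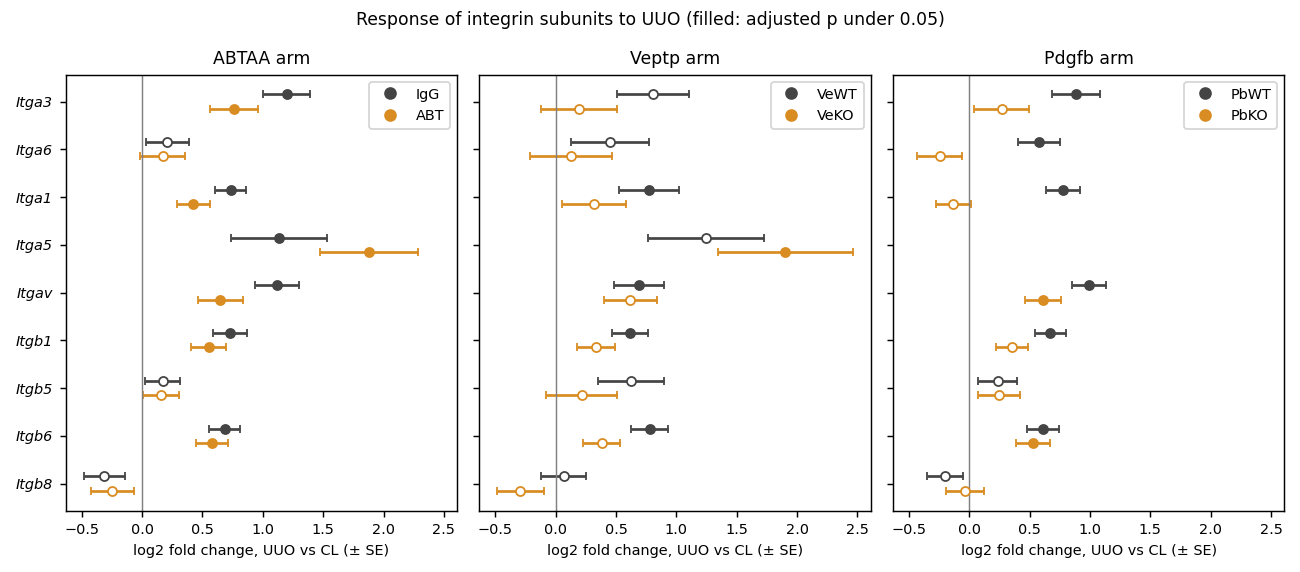
Log2 fold changes of the integrin subunits between UUO and CL kidneys with SE, from edgeR's quasi-likelihood test, for the control (dark) and the ABTAA-treated or knockout-labelled (orange) mice of each arm, with filled points for an adjusted p under 0.05 and Itga2 left out as untested, as was Itga5 in the Pdgfb arm. Itga1 stood at 0.78 in PbWT and -0.13 in PbKO mice, while Itgb6 stood at 0.61 and 0.53.

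The libraries labelled PbKO showed a rise of Itgav and Itgb6 after UUO, 2 of 8 members, where 3.94% of all genes were called higher. Itgav went from 118, 139, 139 and 151 CPM in CL to 172, 203, 215 and 236 CPM in UUO kidneys, without overlap, by 0.61 ± 0.15 (SE, adjusted p = 0.0142). For Itgb6 the CL values were 119, 129, 175 and 184 CPM and the UUO values 186, 225, 226 and 232 CPM, also without overlap, a rise of 0.53 ± 0.14 (SE, adjusted p = 0.0238). The call on Itgav ended without the UUO library E11 (adjusted p = 0.0618), and that on Itgb6 without B10, E10, E11, A12 or F12, each in turn (adjusted p up to 0.092). With all 12 groups in 1 fit neither was called, at adjusted p = 0.366 for Itgav and 0.176 for Itgb6, and the share of all genes called there is not given. Itga1 did not pass in PbKO mice, where CL and UUO values of 179, 180.1, 193 and 193 and 152, 156, 179 and 185 CPM overlapped and the log2 fold change was -0.13 ± 0.14 (SE, adjusted p = 0.671).

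**Figure D3:**
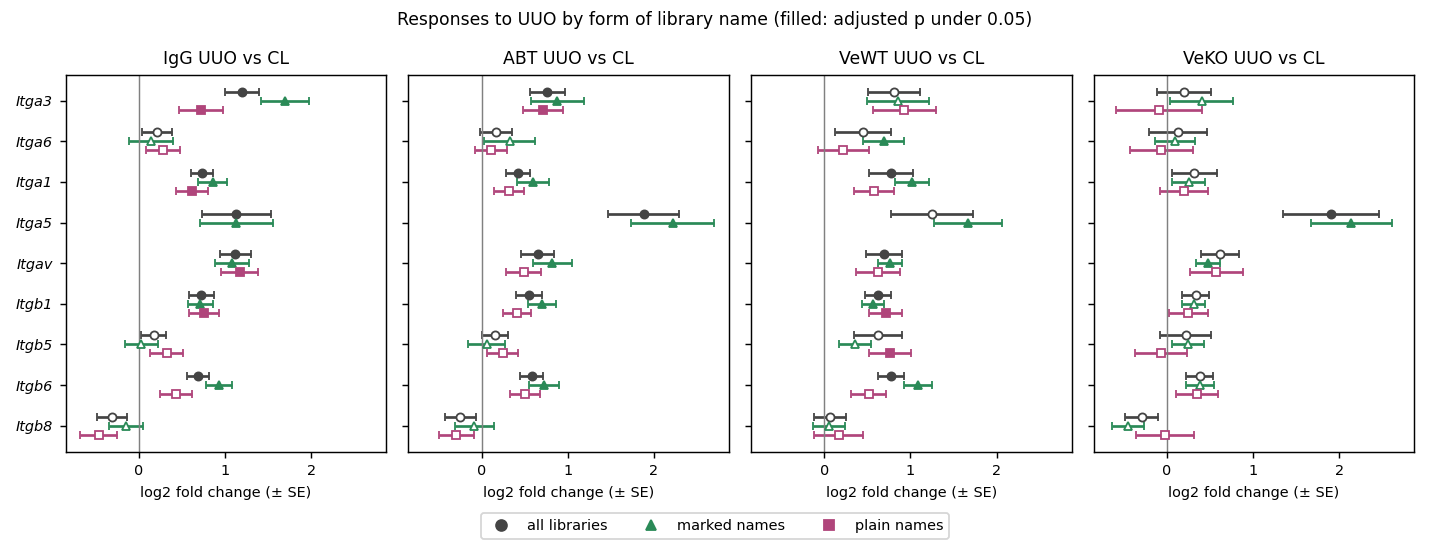
Log2 fold changes between UUO and CL kidneys with SE in the ABTAA and Veptp arms, fitted on all libraries (dark circles), on libraries with marked names (green triangles) and on libraries with plain names (purple squares), filled where the adjusted p was under 0.05. Itgav is above 0 in every fit, from 0.48 to 1.17, and Itga5 was not tested in the plain libraries.

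Treatment was then compared within a kidney state, and the responses to UUO with each other. Between ABT and IgG mice no member was called in UUO kidneys, in CL kidneys or in the difference of the responses, where 0% of all genes were called by edgeR's quasi-likelihood test in each. At an unadjusted p under 0.05 stood 340 of 9579 genes in UUO kidneys, 303 in CL kidneys and 315 in the response, of the members 1, 0 and 0, and neither DESeq2 nor edgeR's exact test (not run for the response) called any gene. The member was Itga1, with 195 to 258 CPM (median 230.3) in ABT against 233 to 343 CPM (median 259) in IgG UUO kidneys and a log2 difference of -0.27 ± 0.13 (SE, adjusted p = 1). Over the 9 members the log2 fold changes in UUO kidneys ran from -0.27 (Itga1) to 0.15 (Itga5), with SE of 0.13 to 0.35. Itgav was at -0.21 ± 0.18 and Itgb6 at -0.21 ± 0.13. In CL kidneys the members ran from -0.59 to 0.26, with Itga5 the lowest and Itgav the highest. The responses to UUO differed by -0.47 ± 0.26 for Itgav, the lowest, and 0.75 ± 0.58 for Itga5, the highest, the gene with the fewest counts among those tested. Within the forms of name the members in UUO kidneys ran from -0.38 to 0.52 in marked and -0.29 to 0.27 in plain libraries, and in CL kidneys from -0.57 to 0.43 and -0.18 to 0.39, none of them called.

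Between VeKO and VeWT mice no member was called either, in UUO kidneys, CL kidneys or the response, with 0% of all genes called. There 426, 229 and 324 of 11916 genes, and no member, stood at an unadjusted p under 0.05. DESeq2 called 1, 0 and 0 genes and the exact test 4 in UUO and 0 in CL kidneys, no member among them. In UUO kidneys 8 of 9 members had a log2 fold change below 0, the lowest being Itgb5 at -0.39 ± 0.27 and Itga3 at -0.34 ± 0.29, and every one was smaller in size than 2 SE. Itgb1 was 191 to 303 CPM (median 203) in VeKO and 225 to 318 CPM (median 257) in VeWT UUO kidneys, ranges that overlapped, with a log2 fold change of -0.28 ± 0.14. Within the forms of name the members ran from -0.37 to -0.06 in marked and -0.66 to -0.01 in plain UUO libraries, from -0.69 to 0.56 and -0.12 to 0.37 in CL libraries, and none was called. The response differed by -0.45 ± 0.36 for Itga1 and -0.61 ± 0.43 for Itga3, the lowest of the members, and by 0.66 ± 0.73 for Itga5, the highest.

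The genotypes of the Pdgfb arm were compared in the same way. In UUO kidneys Itga1, Itga6, Itgav and Itgb1 were lower in PbKO than in PbWT mice, 4 of 8 members, and none was higher, where 6.58% of all genes tested were called lower. The alpha subunit Itga1 differed most. Its UUO values were 152, 156, 179 and 185 CPM in PbKO and 235, 269, 278 and 309 CPM in PbWT mice. They did not overlap, and Itga1 was lower in PbKO, at log2 -0.69 ± 0.14 (SE, adjusted p = 0.000845), a call kept without each of the 16 libraries in turn. Itga6 stood at 89.3, 96.1, 119 and 123 against 110.2, 162, 165 and 179.9 CPM, overlapping through a single PbWT library, with -0.51 ± 0.18 (SE, adjusted p = 0.042). Itgav, at 172, 203, 215 and 236 against 256, 283, 291 and 314 CPM, did not overlap and gave -0.45 ± 0.14 (SE, adjusted p = 0.0238). Itgb1, at 205, 229.9, 266 and 298 against 320.0, 324, 333 and 368 CPM, did not overlap and gave -0.41 ± 0.13 (SE, adjusted p = 0.0238).

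Among the members not called between UUO kidneys, Itga3 and Itgb6 also showed separate ranges. The share of all genes with separate ranges was not counted, so here and above such ranges describe a gene and do not set the members apart. At an unadjusted p under 0.05 stood 5 of 8 members and 31.0% of all genes (3387 of 10923). Itga3 was at 23.2, 27.5, 30.0 and 32.7 CPM in PbKO against 36.1, 38.2, 45.2 and 48.6 CPM in PbWT mice, log2 -0.52 ± 0.19 (SE, adjusted p = 0.0579), and Itgb6 at 186, 225, 226 and 232 against 236, 246, 255 and 276 CPM, log2 -0.21 ± 0.13 (SE, adjusted p = 0.295). The ranges of Itgb5 (-0.17 ± 0.16) and Itgb8 (0.16 ± 0.15) overlapped. In CL kidneys no member and 0% of genes were called between PbKO and PbWT, with 378 of 10923 genes and no member at an unadjusted p under 0.05 and no gene called by DESeq2 or the exact test. The log2 fold changes in CL kidneys ran from -0.18 (Itgb5) to 0.31 (Itga6).

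The difference of the responses to UUO was called for 2 of 8 members, both lower in PbKO mice, against 1.90% of all genes. Itga1 gave -0.91 ± 0.20 (SE, adjusted p = 0.00477), with a rise of 0.78 ± 0.14 in PbWT and a change of -0.13 ± 0.14 in PbKO mice. Itga6 gave -0.82 ± 0.26 (SE, adjusted p = 0.0452), from 0.58 ± 0.18 and -0.24 ± 0.19. For Itga1 the call held without each library in turn, while that on Itga6 ended in 11 of the 16 cases: without E4, B5, D10, E10, A11, D11, C12, D12, F10, E11 or A12 (adjusted p up to 0.11). The responses of Itgb6 and Itgb5 differed by -0.09 ± 0.19 and 0.01 ± 0.24, that of Itgav by -0.38 ± 0.21.

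**Figure D4:**
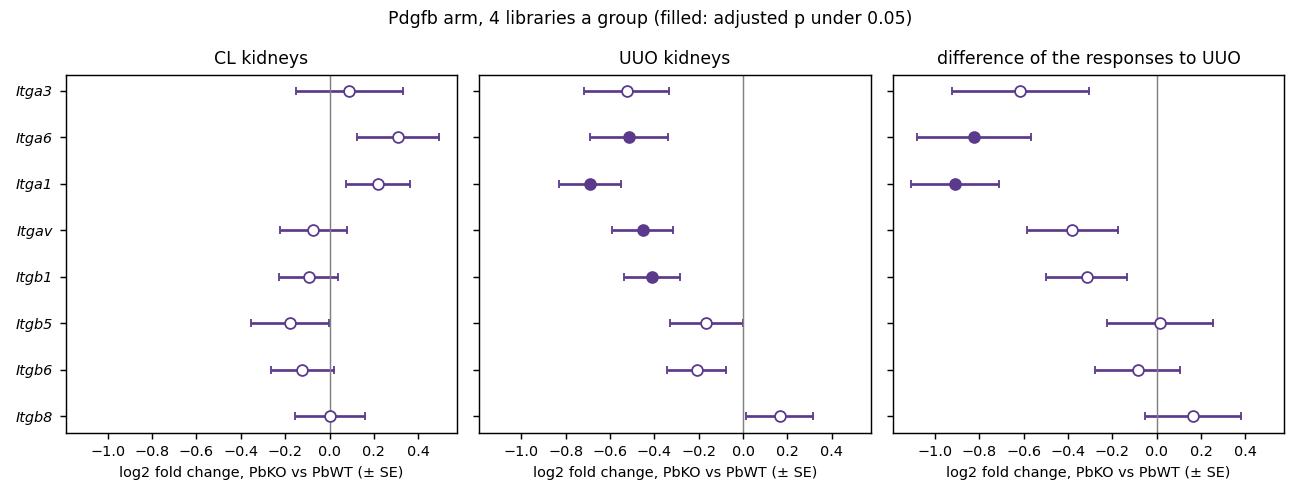
Log2 fold changes with SE between PbKO and PbWT mice for the 8 integrin subunits tested, in CL kidneys, in UUO kidneys and as the difference of the responses to UUO, with 4 libraries a group and filled points for an adjusted p under 0.05. Itga1 and Itga6 are at -0.91 and -0.82 in the right panel, and Itgb5 at 0.01.

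These calls rested on few libraries of unequal depth, 888357 to 2049326 counts in PbWT and 337545 to 1249343 counts in PbKO UUO kidneys. Without single libraries the count of 4 between UUO kidneys fell to 1 (without D12 or without F10, the shallowest) or 2 (without D11, E11 or A12), and 5 was the highest count without 1 library. The call ended for Itga6 without D11, C12, D12, F10, E11 or A12 (adjusted p up to 0.157), for Itgav without D11, D12, F10 or A12 (up to 0.0782) and for Itgb1 without D12, F10 or E11 (up to 0.0921). With all 12 groups in 1 fit no member was called between PbKO and PbWT, and Itga1 had adjusted p = 0.101 in UUO kidneys and 0.318 for the response. The share of all genes called in that fit is not given here, so whether the members moved apart from all genes was not tested. Without TMM factors 7 of 8 were called lower, as were 22.9% of all genes, and the all-gene median went from -0.02 to -0.29, and Itgb8 turned from 0.16 to -0.11. Cell type markers differed between the same kidneys: in PbKO UUO 7 of 8 fibroblast and pericyte markers, 4 of 7 macrophage and 3 of 9 endothelial markers were lower, 7 of 8 proximal tubule, 5 of 5 loop and distal tubule, 3 of 6 collecting duct and 3 of 4 red cell markers higher, and 0 of 8 injured tubule and 0 of 5 podocyte markers were called. The fibroblast and pericyte sum was 466 to 1047 CPM in PbKO and 1296 to 1715 CPM in PbWT UUO kidneys, the macrophage sum 163 to 202 and 252 to 386 CPM, the endothelial sum 180.3 to 286 and 277 to 368 CPM, the injured tubule sum 2213 to 2806 and 3426 to 3949 CPM, and the proximal tubule sum 2807 to 5047 and 1443 to 2289.5 CPM. The loop and distal tubule sum was 3568 to 5153 and 2079 to 2407 CPM, the collecting duct sum 403 to 507 and 241 to 355 CPM and the red cell sum 567 to 839 and 323 to 425 CPM. Of 6 urothelial markers 1 was tested, and was lower, and 1 was at 0 in all PbKO UUO libraries. No marker of the other lists named here was at 0 throughout either group, and the part of all these markers in the integrin differences was not tested.

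The partners of Itgav can also be compared within a library, with no scaling, as shares of the summed counts of Itgb5, Itgb6 and Itgb8. The summed counts were 54 to 1392 a library, and transcript length enters these shares, so they follow changes and not the make-up of dimers. In every one of the 6 genotypes the mean share of Itgb6 was higher and that of Itgb8 lower in UUO than in CL kidneys. In IgG mice Itgb6 made up 41.7% ± 2.76 (SD, n = 8) in CL and 54.4% ± 5.69 (SD, n = 8) in UUO kidneys, with ranges of 38.6% to 46.2% and 45.8% to 60.5%. The Itgb8 share went from 35.4% ± 5.52 (SD, n = 8) to 24.1% ± 2.67 (SD, n = 8), and that of Itgb5 from 23.0% ± 4.67 (SD, n = 8) to 21.5% ± 6.83 (SD, n = 8). ABT mice gave 40.0% ± 1.34 (SD, n = 7) and 51.2% ± 4.52 (SD, n = 7) for Itgb6, with no overlap between 38.3% to 41.9% and 43.6% to 56.2%. In the Veptp arm the Itgb6 share was 43.2% ± 4.88 (SD, n = 7) and 53.0% ± 6.39 (SD, n = 8) in VeWT and 43.1% ± 5.02 (SD, n = 6) and 52.1% ± 3.14 (SD, n = 8) in VeKO mice. The VeWT shares differed by form of name. Plain libraries had 43.7%, 45.3% and 48.5% in CL and 41.9%, 48.3%, 49.1% and 52.6% in UUO kidneys, which overlapped. Marked libraries ran from 34.5% to 47.7% in CL and 55.6% to 61.9% in UUO kidneys. PbWT CL and UUO kidneys had 40.5% ± 3.81 (SD, n = 4) and 51.3% ± 4.01 (SD, n = 4), PbKO kidneys 39.1% ± 5.67 (SD, n = 4) and 47.4% ± 0.907 (SD, n = 4). The shares of a library sum to 100%, so a higher share of Itgb6 lowers the others by construction, and no test was made on them. The Itgb5 mean differed between UUO and CL kidneys by -1.45 to 1.20 percentage points over the 6 genotypes, within the SD of the groups.

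**Figure D5:**
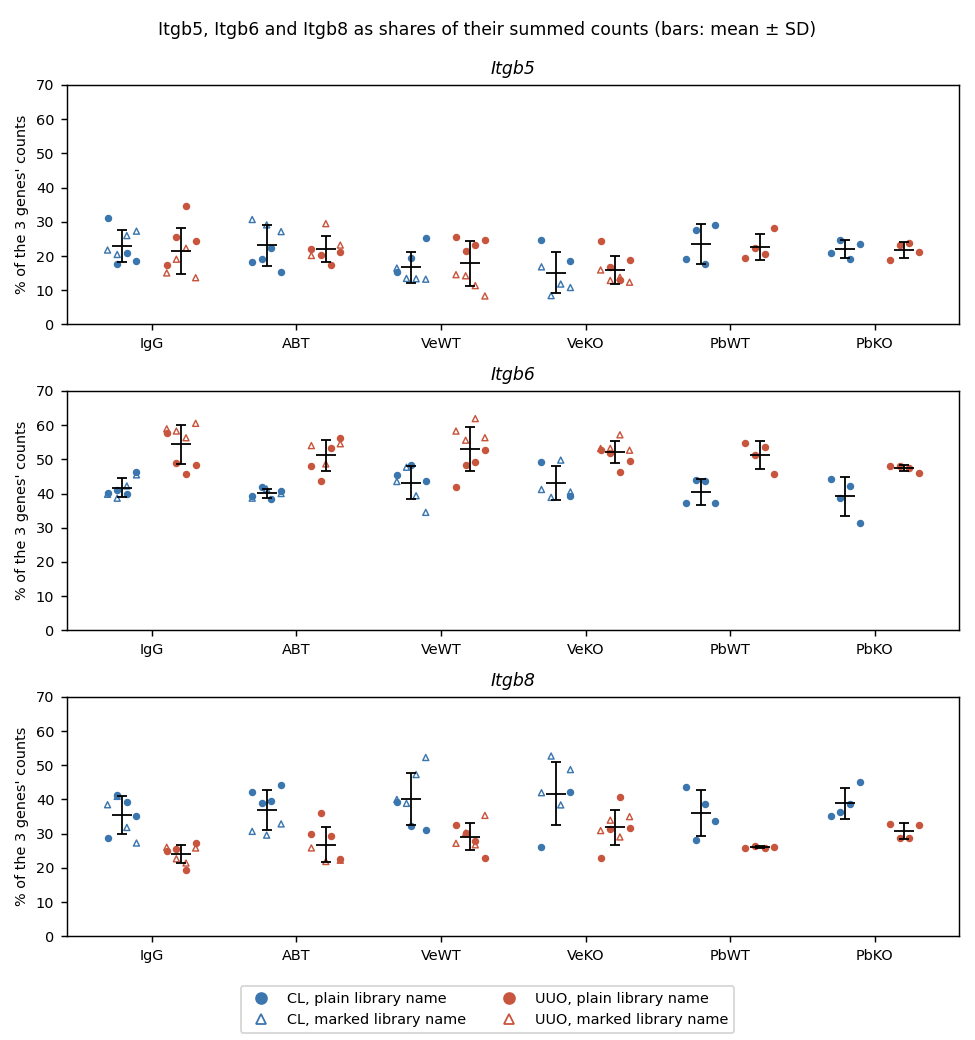
Itgb5, Itgb6 and Itgb8 counts as percent of their sum in each of the 75 libraries, by genotype or treatment, CL in blue and UUO in red, with the mean and SD of each group as bars and open triangles for marked library names. The Itgb6 mean lies between 39.1% and 43.2% in the CL and between 47.4% and 54.4% in the UUO groups.

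Over the 75 libraries, with each group and form of name centred on its own mean, the log2 levels of the 8 members other than Itga2 and Itga5 were compared in 28 pairs. Pearson's r was 0.52 between Itga6 and Itgb8, 0.50 between Itgb1 and Itgb6, 0.43 between Itgav and Itgb6 and 0.40 between Itgav and Itgb8. Among the 7 pairs of Itgb5, r ran from -0.07 with Itgb8 to 0.27 with Itga1, with 0.04 for its partner Itgav and 0.14 for Itgb6. These are descriptions over libraries that share a depth for all genes. When only arm and form of name were centred, so that the difference between UUO and CL kidneys remained, the 3 of 10342 genes with a level most like that of Itgb6 were Cp (0.83), Myof (0.82) and Tcaf1 (0.82), with Pearson's r in parentheses. For Itgav they were Map4 (0.85), Sytl2 (0.84) and Hnrnpa1 (0.84), for Itgb1 Hnrnpa1 (0.89), Pea15a (0.89) and Ctsc (0.88) and for Itga1 Myadm (0.81), Sept11 (0.80) and Gc (0.78). Itga5 lay closest to Serpinb9 (0.69), Nfkbia (0.68) and Cd14 (0.68), of which Nfkbia encodes the inhibitor of NF-kappa-B and Cd14 a receptor of myeloid cells. Itgb8, which was not called after UUO in the fits of each arm on all its libraries, lay closest to Slc22a29 (0.70), Acnat1 (0.69) and Gm10639 (0.68), and Itgb5 to Tcf21 (0.57), Cd151 (0.55) and Oas1a (0.54).

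Other genes of the pathway were taken from lists of 17 further integrin subunits, 24 matrix ligands, 9 genes of latent TGF-beta and 34 of the adhesion complex. In IgG mice 3 of 4 further subunits tested rose after UUO and none fell. They were Itgam (log2 fold change 2.63 ± 0.34 SE, adjusted p = 6.9e-08) and its beta partner Itgb2 (log2 fold change 1.79 ± 0.44 SE, adjusted p = 0.00138), both of leukocytes, and Itga9 (log2 fold change 1.17 ± 0.29 SE, adjusted p = 0.00152), which binds tenascin C and osteopontin. Of the ligands 15 of 20 tested rose and none fell, with a median of 1.56 against 0.02 over all genes. The largest rises were those of the fibrillar collagens Col3a1 (log2 fold change 3.68 ± 0.19 SE, adjusted p = 1.52e-16) and Col1a1 (log2 fold change 3.66 ± 0.26 SE, adjusted p = 6.65e-13), which are also among the fibroblast markers, and of Tnc, tenascin C (log2 fold change 3.09 ± 0.34 SE, adjusted p = 1.21e-08). Of the latent TGF-beta genes 2 could be tested and 1 rose. In the adhesion complex 11 of 30 tested rose and 2 fell, with a median of 0.13. The actin cross-linkers Actn1 (log2 fold change 2.36 ± 0.24 SE, adjusted p = 2.23e-09) and Flna (log2 fold change 2.13 ± 0.18 SE, adjusted p = 4.2e-11) and vinculin, Vcl (log2 fold change 1.33 ± 0.15 SE, adjusted p = 1.82e-08), rose, and talin 2, Tln2 (log2 fold change -1.14 ± 0.19 SE, adjusted p = 9.66e-06), and tensin 1, Tns1 (log2 fold change -0.36 ± 0.12 SE, adjusted p = 0.0171), fell.

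Across the other comparisons with UUO, the numbers called higher and lower among matrix ligands tested were 13 and 0 of 20 in ABT, 15 and 0 of 23 in VeWT, 5 and 0 of 23 in VeKO, 17 and 0 of 22 in PbWT and 9 and 0 of 22 in PbKO mice. For the adhesion complex they were 11 and 2 of 30, 10 and 1 of 33, 3 and 1 of 33, 12 and 2 of 32 and 3 and 3 of 32, and for the further integrin subunits 3 and 0 of 4, 5 and 0 of 9, 2 and 0 of 9, 4 and 0 of 5 and 1 and 0 of 5. Of all genes tested, the shares called higher are given above, and 18.2% in IgG, 12.5% in ABT, 8.38% in VeWT, 3.47% in VeKO, 19.4% in PbWT and 2.42% in PbKO mice were called lower. Thus in VeKO mice 3 of 33 adhesion complex genes were called higher where 4.47% of all genes were, and in PbKO mice 3 of 32 where 3.94% were. Latent TGF-beta genes gave 1 and 0 of 2, 2 and 0 of 7, 0 and 0 of 7, 1 and 0 of 5 and 0 and 0 of 5. Between PbKO and PbWT UUO kidneys 15 of 22 ligands, 9 of 32 adhesion complex genes, 2 of 5 further subunits and 2 of 5 latent TGF-beta genes were lower in PbKO, where 6.58% of all genes were, and 1 adhesion complex gene, Tln2, was higher, where 12.0% were. The log2 fold change was -0.97 ± 0.26 (SE, adjusted p = 0.0103) for Col3a1, -1.10 ± 0.35 (SE, adjusted p = 0.027) for Tnc, -1.39 ± 0.33 (SE, adjusted p = 0.00413) for Itgam and -1.03 ± 0.21 (SE, adjusted p = 0.000815) for Actn1, and 0.72 ± 0.16 (SE, adjusted p = 0.00247) for Tln2. None of the genes of these lists was called between ABT and IgG or between VeKO and VeWT mice.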

How the data were processed

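Bulk RNA from 75 kidneys was sequenced with Smart-seq3, with 4 wells per sample merged. The authors deposited 1 table of raw counts per gene, and the submitters' processing notes name STAR 2.7.3a, UMI-tools 1.1.4, featureCounts, Subread 1.4.6-p5 and mm10. Every column was used. Groups came from the genotype and treatment labels. The labels do not tie libraries to mice, so p-values measure the spread between these libraries. Library totals set the precision of each level.

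Genes that passed filterByExpr (minimum count 10, total 15) in an arm were fitted with edgeR 4.0.16 (R 4.3.3, limma 3.58.1), with TMM factors, a quasi-likelihood test on 4 group means per arm and Benjamini-Hochberg adjustment over all genes tested. There were 5 comparisons per arm. Every member was named, and from the pathway lists up to 3 rises and 3 falls of the largest size in IgG mice, with the targeted genes and the 3 genes most alike in log2(CPM + 1) among those with a mean of at least 10 CPM. The members and lists were chosen with earlier results of these data known. The fit was tested on simulated data with 200 changed genes.

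Alternatives were no TMM factors, DESeq2 1.42.0, the exact test, other filters, the form of library name, all 12 groups in 1 fit and each library left out. Same-numbered libraries of the ABTAA arm deviated together in 3 of 3 pairs (Pearson's r of 0.166 to 0.397, against a median of -0.22 for other numbers), so a replicate block was fitted on those 6 libraries. Figures were drawn with matplotlib 3.10.9 (Python 3.11.15, pandas 2.3.3, numpy 2.4.6, scipy 1.17.1). Gene positions are those of GENCODE vM21 on mm10.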

Additional observations from a re-analysis of the deposited data

Results flagged for a closer look

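In 14 of 120 sets of 1 member in 1 group, a library lay farther from its neighbours than Dixon's 95% limit allows. That limit assumes values from 1 normal distribution, which low counts and groups with both forms of library name need not follow. The 14 were therefore not set against a number due to chance. E7 and B8, named below, were the only 2 plain libraries among the 6 of VeKO CL. Of the laminin-binding subunits, Itga6 was 79.4 CPM in the IgG UUO library P_7 (the others 121 to 162 CPM), 162 CPM in the VeKO CL library E7 (56.6 to 81.3 CPM) and 91.9 CPM in the PbKO CL library B10 (138 to 149 CPM). Itga2 was 0.996 CPM, from 1 count, in the PbKO CL library A11, where the others had none. Itga5 had 0 counts in the IgG CL library B7, which allows up to 3, and stood at 1.94 CPM in the PbWT UUO library D12.

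Itgav was 60.2 CPM in the IgG CL library A6 and 180.0 CPM in the VeKO CL library E7. Itgb1 was 326 CPM in the ABT CL library N_9 and 162 CPM in the PbKO CL library E10. Of the partners of Itgav, Itgb5 was 78.2 CPM in the IgG CL library B7, Itgb6 was 145 CPM in the VeKO UUO library D8 and 186 CPM in the PbKO UUO library F10, and Itgb8 was 80.2 CPM in the VeKO CL library B8. B7 and E7 each stood apart for 2 members. The 12 libraries named here held 221258 to 1017811 counts, 9 of them under and 3 (B10, A11 and D12) over the median of 757897.

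Between PbKO and PbWT mice the responses to UUO differed by the interaction test for Itga1 (log2 -0.91) and Itga6 (log2 -0.82), which encode a collagen- and a laminin-binding partner of Itgb1, with the values given above.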

How the results depend on the processing

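No called value changed direction under any alternative. In ABT mice the 6 members called after UUO became 1 in plain libraries alone. The 4 called in VeWT mice became 7 with the form of name as a covariate, 7 with all 12 groups in 1 fit and 2 in plain libraries alone. The 1 called in VeKO mice (Itga5) became 2 without TMM factors, with the form as a covariate, in marked libraries alone and with all 12 groups in 1 fit, and 0 in plain libraries alone and under a mean count of at least 20, which left Itga5 out. With all 12 groups in 1 fit the 2 called in PbKO mice, the 4 between PbKO and PbWT UUO kidneys and the 2 in their response all became 0, and without TMM factors the 4 became 7. The fit of all 12 groups, for which the share of all genes called is not given here, also ended the calls after UUO on Itga5 in IgG (log2 1.13, adjusted p = 0.0662), Itga1 in ABT (0.40, 0.127) and Itga6 in PbWT mice (0.57, 0.228). Between PbKO and PbWT UUO kidneys DESeq2 ended the call on Itga6 (-0.52, 0.0509) and a fit with no filter that on Itgb1 (-0.42, 0.0519), and no filter also that on Itga1 in ABT mice (0.39, 0.149). For these the cause was not tested. Leaving out each library gave 5 to 6 in IgG, 5 to 6 in ABT, 3 to 5 in VeWT, 0 to 2 in VeKO, 6 to 7 in PbWT and 0 to 2 in PbKO mice, 1 to 5 between PbKO and PbWT UUO kidneys, 1 to 2 in the response and 0 in the other 7 comparisons. In the ABTAA arm a replicate block on the 6 same-numbered libraries, which the labels do not tie to mice, gave 6 called members in ABT mice (14.4% of all genes higher), and 5 without the block (11.2%), and it ended no call. In the Veptp arm libraries of 8 numbers shared only a number (Pearson's r of 0.0632 to 0.438, with 10 of 16 libraries closest to their own number, and 4 numbers carrying opposite genotypes). A replicate block there gave 6 called members in VeWT mice, all higher (11.6% of all genes), and 6 in VeKO mice (12.0% higher, 14.4% lower), where Itga3, Itga1, Itga5, Itgav and Itgb6 were higher and Itgb8 lower (log2 -0.58, adjusted p = 0.00599), against 2 in VeKO mice without the block (10.5% higher, 10.6% lower). Leaving out numbers 3, 4, 7 and 8, an alternative chosen after seeing the data, gave 2 in VeWT and 0 in VeKO mice (4.68% and 0.852% of all genes higher). Without TMM factors the signs of uncalled Itgb8 values in the Pdgfb arm turned. Itga2, with 248 counts in all, was called by a fit with no filter in ABT mice (log2 1.92, adjusted p = 0.00324) and in no other comparison, and depth limits what can be said of Itga2 and Itga5.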
